A study of Mus musculus with 6 samples.

Results

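Medium spiny neurons make up most of the neurons of the striatum, a nucleus of the basal ganglia, and 9 genes that mark both of their main classes are described here: Ppp1r1b, Arpp21, Rgs9, Rasd2, Scn4b, Bcl11b, Foxp1, Rarb and Rxrg. They were chosen by name, and all 9 were matched through their GENCODE symbol to an Ensembl identifier among the 55335 identifiers in the count files. All 9 also passed the filter on low counts. Striatal RNA of C57 mice had been sequenced in 3 samples with the genotype PDE5A Overexpressing and in 3 control samples with the genotype WT. The way overexpression was achieved, any treatment of the controls and the age of the mice could not be learned from the labels. Whether each sample is a separate animal is likewise unstated, so every p-value below refers to sample-to-sample spread, part or all of which may be technical.

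Medium spiny neurons use GABA as their transmitter and fall into a direct-pathway class with D1 dopamine receptors and an indirect-pathway class with D2 receptors. Dopamine acts on both through cyclic AMP and protein kinase A, and cyclic GMP, the substrate of PDE5A, acts in the same cells through protein kinase G. The shared genes cover several steps of this biology: phosphoproteins downstream of the cyclic nucleotides, regulators of G proteins, a sodium channel subunit, and transcription factors that set and keep the identity of the cell. Several of them, among them Bcl11b, Foxp1 and Arpp21, are also known from subsets of neurons in the cerebral cortex, which lies next to the dorsal striatum. Slc17a7, the vesicular glutamate transporter VGLUT1 of cortical excitatory neurons, served as a sign of cortical tissue, since medium spiny neurons do not make it.

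The libraries held between 33013698 and 42288789 counts. Pde5a, the manipulated gene, had 760.4, 700.5 and 592 CPM (read counts scaled to the TMM-adjusted library size) in overexpression replicates 1 to 3, against 3.72, 4.14 and 6.09 CPM in control replicates 1 to 3. It was the 1 gene called among the 19809 tested by edgeR's quasi-likelihood test, with an adjusted p of 0.000151 after Benjamini-Hochberg adjustment. The libraries stood apart in markers of other tissue. Slc17a7 had 195, 434 and 817 CPM in overexpression replicates 1 to 3 and 341, 64.3 and 669.8 CPM in control replicates 1 to 3. Ttr, a choroid plexus gene, was at 481, 2243 and 22.5 CPM in overexpression and 48.5, 32.6 and 35.7 CPM in control.

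The 9 genes were present at almost the same mean level in both groups, while the highest library was 1.71 (Foxp1) to 2.55 (Rarb) times the lowest. None was called (0 of 9, where 0.00505% of all tested genes were called), and the smallest unadjusted p among them was 0.765, where 3.89% of all tested genes had an unadjusted p under 0.05. Their log2 fold changes, overexpression over control, ran from −0.06 for Rasd2 to 0.10 for Rxrg, with a median of −0.02 beside a median of 0.0016 over all genes tested. All 9 had overlapping groups, as did most genes: 8.93% of all tested genes had groups without overlap. In the DESeq2 Wald test and in limma-voom 0 of the 9 were called as well. The 95% intervals of the fold, from edgeR's standard errors, reached down to 0.46 and up to 2.10 for Rarb and were narrowest for Arpp21, from 0.66 to 1.48, so moderate changes in either direction lay within the intervals of all 9. In all 9, overexpression replicate 1 or control replicate 2 was the highest library. Single libraries set the direction: all 9 log2 fold changes were positive without overexpression replicate 3 (0.14 to 0.36) or control replicate 2 (0.18 to 0.32), and all 9 were negative without overexpression replicate 1 (−0.32 to −0.13) or control replicate 3 (−0.28 to −0.079), with none called by edgeR in any of these fits. RNA from bulk tissue cannot tell fewer cells of a type from less RNA per cell.

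**Figure D1:**
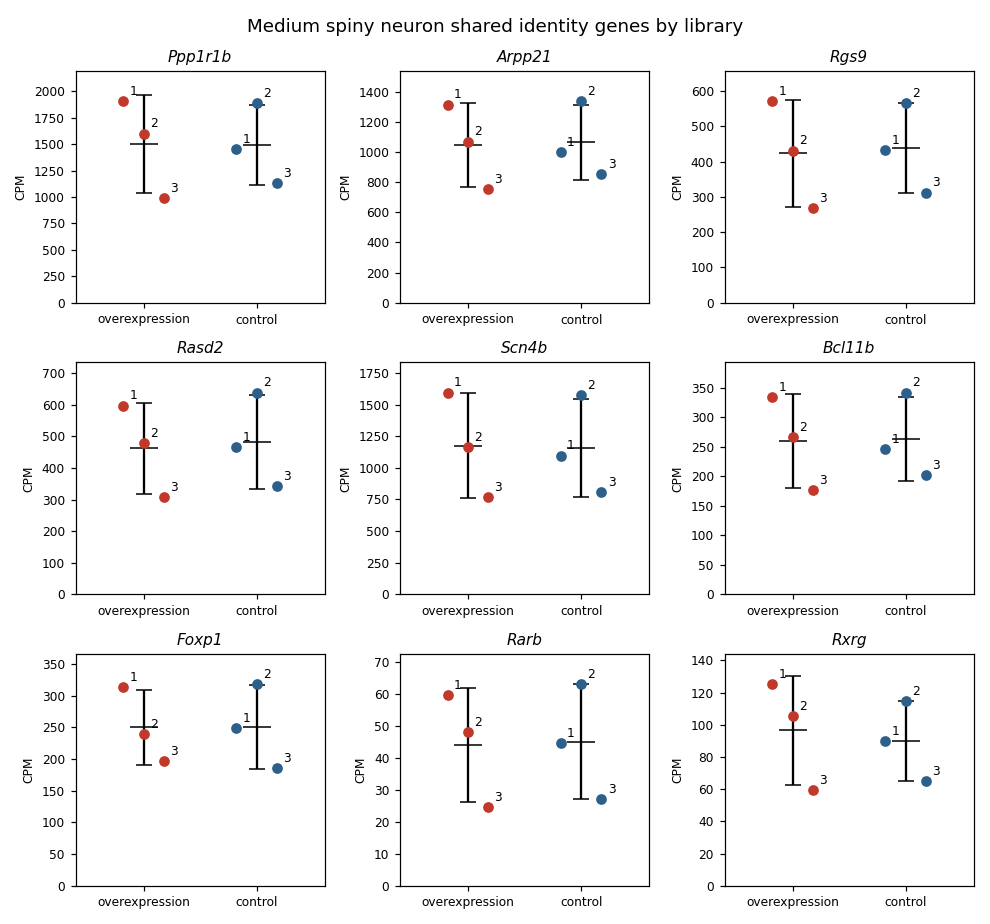
CPM of each of the 9 genes in the overexpression and control libraries (points, numbered by replicate; bars, mean ± SD over 3 libraries). Overexpression replicate 1 and control replicate 2 are high and replicate 3 of each group is low, while the group means lie close together.

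Ppp1r1b encodes DARPP-32, which turns into an inhibitor of protein phosphatase 1 when protein kinase A or protein kinase G phosphorylates it. It had 1907, 1599.6 and 991 CPM in overexpression replicates 1 to 3, against 1454, 1887 and 1132.5 CPM in control replicates 1 to 3. The highest and the lowest library were both from overexpression, and the groups overlapped. The means were 1499 ± 466 CPM in overexpression and 1491 ± 379 CPM in control (SD, n = 3 each), a log2 fold change of 0.0078 (SE 0.28). The gene occupies chromosome 11 from 98348404 to 98357796 (mm10, plus strand) and shares 460 exon bases with the noncoding 1700003D09Rik on the other strand. That transcript had 706, 484 and 247 counts in overexpression and 641, 767 and 449 in control, following the same order of libraries. The libraries were strand-specific, but no source used here states whether counting used strand. Whether the counts of overlapping partners are separate is therefore not known.

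Arpp21 encodes a cyclic AMP-regulated phosphoprotein, and a longer form of the protein binds RNA. It had 1314, 1069 and 754 CPM in overexpression replicates 1 to 3, against 997, 1337.5 and 853 CPM in control replicates 1 to 3. Again overexpression replicate 1 and control replicate 2 were the high libraries. The log2 fold change was −0.02 (SE 0.24). The gene spans 112065091 to 112235938 on the minus strand of chromosome 9 in mm10. An intron of Arpp21 holds Mir128-2, from 112118636 to 112118711, one of the genes for the neuronal miR-128. The mature miRNA is shown because its gene lies inside this member (RefSeq, GRCm38.p6, chr9:112118644-112118664, minus strand); capitals mark the seed, bases 2 to 8.
mmu-miR-128-3p: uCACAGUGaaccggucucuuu
Mir128-2 itself had 0 counts in all 6 libraries, which are not small RNA libraries. On the other strand 2900079G21Rik shares 580 exon bases with Arpp21 and had 140 to 203 counts per library.

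Both G protein regulators were likewise spread alike in the groups. Rgs9 encodes a GTPase-activating protein whose striatal splice form shortens signalling by D2 dopamine and opioid receptors. It had 571, 431 and 268 CPM in overexpression replicates 1 to 3, against 432, 567 and 312 CPM in control replicates 1 to 3, with means of 423.5 ± 152 and 437 ± 127 CPM (SD, n = 3 each). Its log2 fold change was −0.05 (SE 0.33). Rasd2 encodes Rhes, a small GTP-binding protein concentrated in the striatum that dampens dopamine signalling. It had 598, 479 and 309 CPM in overexpression replicates 1 to 3, against 466, 639 and 342 CPM in control replicates 1 to 3. The log2 fold change of Rasd2, −0.06 (SE 0.31), was the most negative of the 9 and smaller than its standard error.

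Scn4b encodes an auxiliary subunit of voltage-gated sodium channels that helps the channel reopen after a spike. It had 1595, 1160.2 and 765 CPM in overexpression replicates 1 to 3, against 1096, 1572 and 808 CPM in control replicates 1 to 3. The groups overlapped over nearly their whole range, with means of 1173 ± 415 CPM in overexpression and 1159 ± 386 CPM in control (SD, n = 3 each). Its log2 fold change was 0.02 (SE 0.34).

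Among the transcription factors, Bcl11b encodes the zinc finger protein CTIP2, which medium spiny neurons need to differentiate. It had 334, 267 and 177 CPM in overexpression replicates 1 to 3, against 246, 342 and 202 CPM in control replicates 1 to 3. The log2 fold change was −0.02 (SE 0.29). Foxp1, a forkhead repressor active in both classes of medium spiny neuron, had 314, 240.1 and 197 CPM in overexpression replicates 1 to 3, against 249, 319 and 186 CPM in control replicates 1 to 3. Foxp1 differed from the other 8 genes in having its lowest value in control replicate 3, where theirs was in overexpression replicate 3. Its log2 fold change of −0.0038 (SE 0.24) was the nearest to 0.

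Rarb and Rxrg encode nuclear receptors, retinoic acid receptor beta and retinoid X receptor gamma, which pair on DNA and carry the retinoid signal in the striatum. Rarb was the least abundant of the 9 and had 59.7, 48.2 and 24.7 CPM in overexpression replicates 1 to 3, against 44.9, 63.2 and 27.2 CPM in control replicates 1 to 3. It also had the widest spread, with the highest library 2.55 times the lowest, where the figure was 1.71 for Foxp1 and 1.77 for Arpp21. Its log2 fold change was −0.03 (SE 0.44). Rxrg had 125, 105 and 59.4 CPM in overexpression replicates 1 to 3, against 89.8, 115 and 65.3 CPM in control replicates 1 to 3. Rxrg had the largest log2 fold change of the 9, 0.10 (SE 0.33), well inside its error. Rarb shares 1793 exon bases with Top2b on the other strand, which had 7131, 5671 and 5545 counts in overexpression and 7195, 7400 and 6575 in control, so its count is uncertain to the extent that reads were counted without strand.

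Retinoic acid receptors bind a direct repeat of a short half-site with 5 bases between the repeats (the DR5 retinoic acid response element), and Rarb itself is a classical retinoid target. The promoter windows of both receptors are shown because these members form a receptor pair. Their levels moved together across libraries, as those of all 9 genes did. The windows run from 250 bases before to 50 after the start site (RefSeq, GRCm38.p6). That of Rarb is at chr14:16575427-16575726 on the minus strand, at a start inside the annotated gene, which runs from 16430839 to 16819156. That of Rxrg, at the outer of its listed starts, is at chr1:167598112-167598411 on the plus strand. Capitals mark the DR5 element.
Rarb: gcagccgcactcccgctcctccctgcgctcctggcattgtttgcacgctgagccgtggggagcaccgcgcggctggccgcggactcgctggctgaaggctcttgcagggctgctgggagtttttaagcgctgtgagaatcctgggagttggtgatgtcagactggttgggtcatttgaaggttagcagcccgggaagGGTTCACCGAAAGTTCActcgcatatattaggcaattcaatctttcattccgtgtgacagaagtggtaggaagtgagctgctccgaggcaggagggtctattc
Rxrg: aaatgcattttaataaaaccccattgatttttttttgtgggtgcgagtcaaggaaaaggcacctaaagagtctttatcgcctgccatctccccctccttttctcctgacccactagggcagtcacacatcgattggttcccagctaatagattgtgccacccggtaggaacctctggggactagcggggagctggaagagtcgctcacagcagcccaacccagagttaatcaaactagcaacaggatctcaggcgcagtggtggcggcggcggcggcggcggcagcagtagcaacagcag
The 17-base element of Rarb lay from 53 to 37 bases before the start site, counted as −53 to −37. Windows were matched for 8 of the 9 genes, 19 windows in all, and the Rarb window was the only one with a DR5 element on either strand, which 0.0974% of all 32851 windows held. TATAAA stood in 2 member windows, of Bcl11b and Rgs9, and in 13.6% of all windows. The cyclic AMP response element TGACGTCA was in 0 member windows and in 1.79% of all windows. Both strands were searched and each motif was counted on its own, whether or not it overlapped another. A match describes these letters and does not show binding.

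Scaled to length, as mean CPM per kilobase of annotated exon, the genes kept nearly 1 order in all libraries. Ppp1r1b led with 512 in overexpression and 509 in control, followed by Scn4b at 236 and 233, Rasd2 at 145 and 152, Rgs9 at 66.3 and 68.4 and Arpp21 at 60.001 and 61.0 CPM per kilobase. Rxrg came next at 42.1 and 39.2, then Bcl11b at 31.97 and 32.5, Foxp1 at 18.2 and 18.3 and Rarb at 8.401 and 8.56 CPM per kilobase, with overexpression first in each pair. Ppp1r1b stood above 99.8% of all tested genes on this scale and Rarb above 73.0%. The ranges over the 6 libraries were separate between Ppp1r1b and Scn4b, between Rasd2 and Rgs9, and between Foxp1 and Rarb. The other neighbours overlapped in range, yet within a library each stood in this order in 6 of 6 libraries, except that Arpp21 was above Rgs9 in replicate 3 of both groups. Annotated exons were merged over all isoforms, which lowers the value of genes with many, such as Arpp21 with 17428 and Foxp1 with 13751 exon bases.

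The pattern the 9 genes shared was one of libraries. In overexpression all 9 were ordered replicate 1, then 2, then 3, and in control all 9 were ordered replicate 2, then 1, then 3, which in both groups was the reverse of the order of Slc17a7. Of all tested genes, 8.28% had that reverse order in both groups. The mean of the 9, in log2 CPM, was 8.87, 8.54 and 7.90 in overexpression replicates 1 to 3 and 8.46, 8.88 and 8.03 in control replicates 1 to 3, so the highest and the lowest library differed 1.98-fold. The control sample lowest in Slc17a7, replicate 2, and the overexpression sample lowest in it, replicate 1, were the top pair for all 9 genes.

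**Figure D2:**
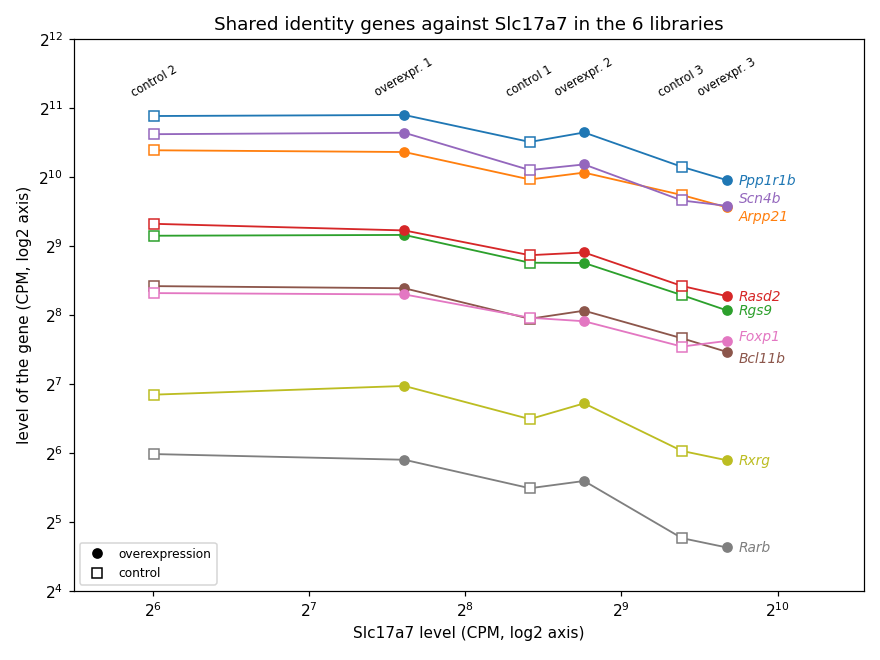
Level of each gene (y axis, CPM, log2 axis) against Slc17a7 (x axis, CPM, log2 axis) in the 6 libraries; filled circles are overexpression, open squares control, and lines join the libraries of a gene in the order of Slc17a7. The 9 lines run nearly parallel and are low at the right, where Slc17a7 reaches 669.8 and 817 CPM.

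Over the 6 libraries Pearson's r between each gene and Slc17a7, on log2(CPM + 0.5), lay between −0.91 for Rasd2 and −0.80 for Rxrg. Spearman's rho was −0.94 for 6 of the genes and −0.89 for Ppp1r1b, Rxrg and Scn4b. Of the 9, 3 had r at or below −0.9, against 2.56% of all tested genes. Exact permutation of the libraries gave a p of 0.0083 to 0.0097 for Arpp21, Bcl11b, Foxp1 and Rasd2 and 0.054 for Rxrg. Adjusted over all tested genes these exact permutation p-values were 0.174 to 0.321, and no tested gene went below 0.147. Before adjustment, the smallest p that 6 libraries can give is 0.00139. For rho the exact permutation p was 0.0167 or 0.0333, and 0.177 or 0.233 after adjustment over all tested genes. Without the libraries farthest from the median of Slc17a7, overexpression replicate 3 and control replicate 2, r was between −0.99 for Foxp1 and −0.89 for Rxrg over the other 4. All of these points share the same libraries, and a CPM value is relative to the rest of its library.

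A slope on the Slc17a7 level, with the group as a second term, was then tested over all genes with edgeR's quasi-likelihood test, a choice made after the values were seen. The level fell with Slc17a7 for 7 of the 9 genes at an adjusted p under 0.05, where 1.42% of all tested genes did so. Scn4b had a slope of −0.33 (SE 0.05, adjusted p = 0.0125), which is 0.793 times the level for each doubling of Slc17a7. Foxp1 and Arpp21 had the flattest slopes, both −0.24 (SE 0.04), with edgeR adjusted p of 0.0105 and 0.0187. Rarb, at −0.40 (SE 0.08), and Rxrg, at −0.30 (SE 0.07), did not pass, with edgeR adjusted p of 0.0562 and 0.0796. The median slope of the 9 was −0.30, against 0.001 over all genes. The count rests on single libraries. It was 0 without overexpression replicate 1, where 0.064% of all tested genes fell, and 0 without control replicate 3, where 0.0639% fell, with median slopes of −0.27 and −0.30 that were negative for all 9. It was 6 without overexpression replicate 2 (0.704% of all tested genes), 9 without overexpression replicate 3 (1.06%), 7 when control replicate 1 was left out (0.958%) and 9 when control replicate 2 was left out (1.44%). With the mean of the cortical markers in place of Slc17a7 it was 9, where 2.44% of all tested genes fell.

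Set against Slc17a7 directly, the ratio of each gene to Slc17a7 differed far more between libraries than between groups. Ppp1r1b had 9.76, 3.69 and 1.21 times the CPM of Slc17a7 in overexpression replicates 1 to 3, against 4.26, 29.4 and 1.69 times in control replicates 1 to 3. Arpp21 had ratios of 6.73, 2.46 and 0.923 in overexpression and 2.92, 20.8 and 1.27 in control. Rarb was below Slc17a7 in all 6 libraries, with ratios of 0.306, 0.111 and 0.0303 in overexpression and 0.132, 0.983 and 0.0406 in control. On the log2 scale the ratio was lower in overexpression by mean differences from −0.81 for Rgs9 to −0.67 for Rxrg. All 9 ratios share 1 denominator, Slc17a7. In log2(CPM + 0.5) it was at 7.61, 8.76 and 9.68 in overexpression replicates 1 to 3 and 8.42, 6.02 and 9.39 in control replicates 1 to 3. The log2 fold changes of the 9 genes themselves ran only from −0.06 for Rasd2 to 0.10 for Rxrg. The 9 differences in ratio are thus not separate results. The groups overlapped for all 9, and the SD within a group, 1.37 to 1.66 in overexpression and 2.06 to 2.31 in control, exceeded each difference. An exact two-sided permutation test gave p = 0.6 for each gene, and 0.737 adjusted over all tested genes, where 3 samples against 3 cannot go below 0.1. The direction turned for all 9 without control replicate 2, to mean differences from 0.36 to 0.48. Without overexpression replicate 3 the differences were near 0, from −0.08 for Foxp1 to 0.14 for Rxrg, and positive for Ppp1r1b, Rarb, Rxrg and Scn4b. They ran from −1.60 to −1.43 without overexpression replicate 1 and from −1.82 to −1.61 without control replicate 3.

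**Figure D3:**
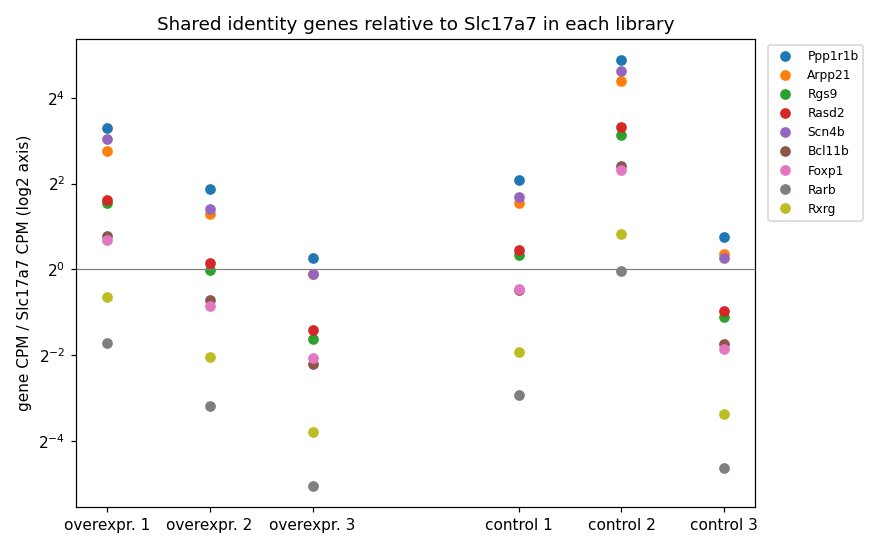
CPM of each gene divided by the CPM of Slc17a7 in each library (log2 axis); the line marks a ratio of 1. Control replicate 2 has the highest ratios, 29.4 for Ppp1r1b, and overexpression replicate 3 the lowest, 1.21 for Ppp1r1b.

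With the Slc17a7 level as a covariate the group difference of all 9 genes became positive. The log2 fold changes were then 0.15 for Arpp21 to 0.31 for Rxrg, with standard errors of 0.09 to 0.19. Still 0 of the 9 were called by edgeR's quasi-likelihood test, with unadjusted p from 0.0584 for Scn4b upward and adjusted p of 0.999, where 0.0151% of all tested genes were called. Leaving out the overexpression libraries high in Ttr, replicates 1 and 2, left replicate 3 alone, the library highest in Slc17a7. All 9 log2 fold changes were negative in that fit, from −0.87 for Rarb to −0.35 for Foxp1, and 0 of 9 were called, at adjusted p of 0.697 or more by edgeR. There the lone sample is assumed to vary like the controls. The direction of the group difference therefore depended on which libraries and which covariate were used, and the part that cortical or choroid plexus tissue played in it was not tested.

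**Figure D4:**
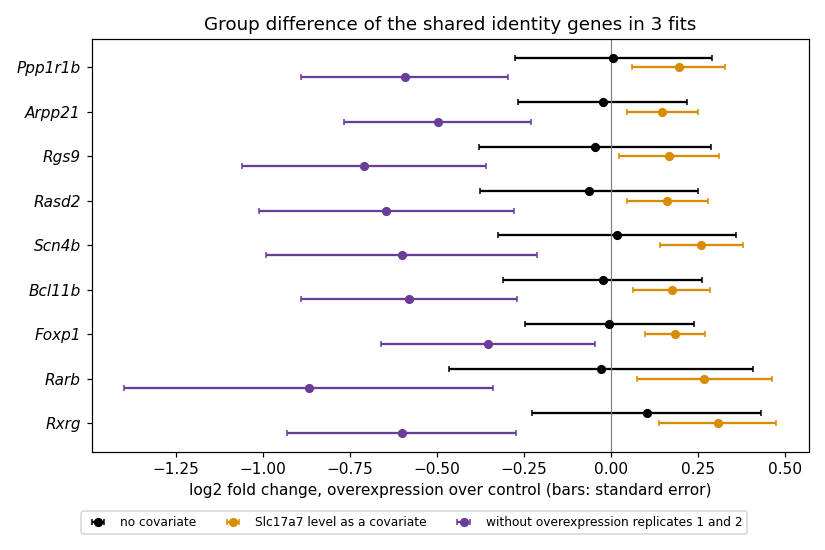
Log2 fold change, overexpression over control, of the 9 genes in 3 fits (points; bars, standard error). Without a covariate the values lie between −0.06 and 0.10, with the Slc17a7 level as a covariate between 0.15 and 0.31, and without overexpression replicates 1 and 2 between −0.87 and −0.35.

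Relative to each other the 9 genes varied less than their own levels did. Pearson's r between pairs of members, over the 6 libraries, had a median of 0.99 over the 36 pairs and was lowest, 0.93, for Foxp1 with Rxrg. Each gene was also set against the mean of the other 8 in the same library, on the log2 scale. Ppp1r1b then stayed within a span of 0.13 and Rasd2 within 0.10 over the 6 libraries, against spans of 0.94 and 1.05 for their own levels. Foxp1 and Rarb strayed most, with spans of 0.40. Foxp1 was relatively high in overexpression replicate 3, at −0.31, where its other 5 libraries lay between −0.71 and −0.55. Rarb was relatively low in replicate 3 of both groups, at −3.65 in each, against −3.33 to −3.25 elsewhere. Mean differences between the groups on this scale, overexpression minus control, ran from −0.06 for Rgs9 to 0.10 for Rxrg. Only Rasd2 had groups without overlap on it, at 0.396 to 0.422 in overexpression and 0.437 to 0.494 in control. The share of all genes without overlap was not taken on this scale, so the separation of Rasd2 is not read as a result. In CPM that share was 8.93% of all tested genes.

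Other genes of medium spiny neurons followed the same libraries. Of 26, among them both dopamine receptors, their neuropeptides and the cyclic AMP machinery, 0 differed between groups in edgeR's test over all genes, with a median log2 fold change of −0.04 and 0 at an unadjusted p under 0.05. In the slope test on all 6 libraries, 22 of the 26 fell with Slc17a7, where 1.42% of all tested genes fell and 2.78% rose. Gad2, a GABA-synthesising enzyme and the one with the smallest p between groups, had 309 ± 80.0 CPM in overexpression and 370.3 ± 78.9 in control (SD, n = 3 each). Of 15 further striatal transcription factors, 0 differed between groups in edgeR's test and 0 had an unadjusted p under 0.05. With Slc17a7, 7 of them fell in the slope test, among them Foxp2 and Meis2, and 1 rose, Mef2c, which is also among the cortical markers. Isl1, which marks direct-pathway and cholinergic neurons, had 11.96, 10.6 and 6.38 CPM in overexpression replicates 1 to 3, against 13.2, 18.6 and 8.54 CPM in control replicates 1 to 3. Its slope on Slc17a7 was −0.33 (SE 0.06).

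Among 24 kinases, phosphatases and anchors around DARPP-32, 4 fell with Slc17a7 and 1, Prkar1b, rose. Of all tested genes, 1.42% fell and 2.78% rose. In edgeR's test 0 of the 24 differed between groups, with a median log2 fold change of −0.0088 and 0 at an unadjusted p under 0.05. Prkg1, the protein kinase G gene with the smallest p of this list, had 7.12 ± 0.859 CPM in overexpression and 8.84 ± 1.40 in control (SD, n = 3 each), an unadjusted p of 0.0835 in edgeR. Of 18 genes of retinoid signalling other than Rarb and Rxrg, 0 passed the slope test and 0 were called between groups by edgeR, with 2 at an unadjusted p under 0.05, against 3.89% of all tested genes. Cyp26b1, which breaks down retinoic acid, had 4.76, 3.67 and 6.86 CPM in overexpression replicates 1 to 3, against 8.45, 7.31 and 15.5 CPM in control replicates 1 to 3. Its groups did not overlap, as in 8.93% of all tested genes. The log2 fold change of Cyp26b1 was −1.03 (SE 0.35) and its edgeR p was 0.0224 unadjusted and 0.99996 adjusted. The R7 RGS complex to which Rgs9 belongs had 7 of 8 other genes tested, with 2 that fell with Slc17a7, Rgs7bp and Gpr158, and 0 called between groups by edgeR, with 1 at an unadjusted p under 0.05. Rgs11, a relative of Rgs9, had 35.3 ± 3.70 CPM in overexpression and 26.99 ± 2.75 in control (SD, n = 3 each), without overlap, at an edgeR adjusted p of 0.998. Of 10 other sodium channel subunits and channel-binding factors, 1 fell with Slc17a7 and 2 rose, and 0 differed between groups in edgeR's test or had an unadjusted p under 0.05. The number of genes with a lower level at higher Slc17a7 was thus 7 of 9 for the shared genes and 22 of 26 for the other medium spiny neuron genes. It was 7 of 15 for the striatal transcription factors, 2 of 7 for the R7 RGS complex and 4 of 24 around DARPP-32. For sodium channel subunits it was 1 of 10 and for retinoid signalling 0 of 18. The difference between these counts was not tested, and all of them are from the fit on all 6 libraries. Over all tested genes, 13 fell without overexpression replicate 1 and 13 without control replicate 3. The 22 of 26 therefore cannot hold in those fits.

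**Figure D5:**
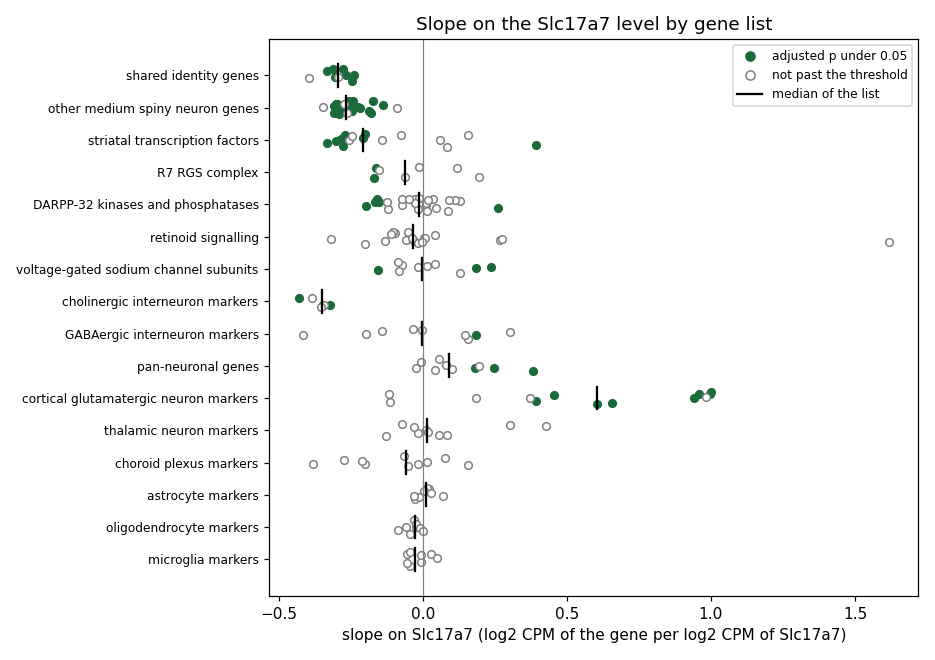
Slope of each gene on Slc17a7 (log2 CPM per log2 CPM, with the group as a second term) by gene list, without Slc17a7 itself; filled points have an adjusted p under 0.05 and black lines are list medians. The shared identity genes have a median of −0.30 and the cortical markers one of 0.60.

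Markers of the other cells a striatal sample can hold give the setting of these slopes. Besides Slc17a7, 8 of 13 cortical glutamatergic markers rose with it, with a median slope of 0.60, where 2.78% of all tested genes rose. Their summed level with Slc17a7 was 922, 1360.3 and 2235 CPM in overexpression replicates 1 to 3 and 1224, 636 and 1768 CPM in control replicates 1 to 3, and no cortical marker was at 0 in any library. Of 6 cholinergic interneuron markers 3 fell with Slc17a7, where 1.42% of all tested genes fell. By contrast, 3 of 10 pan-neuronal genes and 1 of 9 GABAergic interneuron markers rose. Of the markers of astrocytes, oligodendrocytes and microglia, 8 each, and of thalamic neurons and choroid plexus, 10 each, 0 had a slope past the threshold. These slope counts too are from the fit on all 6 libraries. Over all tested genes 550 rose in it, against 130 without overexpression replicate 1 and 109 without control replicate 3. Between groups, the summed choroid plexus markers ranged from 33.7 to 2463 CPM in overexpression and from 50.4 to 72.1 CPM in control. Cldn2 was at 0 in a library, and 6 of 10 choroid plexus markers had an unadjusted p under 0.05 in edgeR. Of all tested genes, 3.89% had an unadjusted p under 0.05, the share to set beside each such count here. The summed thalamic markers were lower in overexpression, at 153 to 168 CPM, than in control, at 179.7 to 229 CPM, with 4 of 10 at an unadjusted p under 0.05. Of the 8 astrocyte markers, 4 had an unadjusted p under 0.05 and 7 had a negative log2 fold change, with summed levels of 4583 to 5213 CPM in overexpression and 5155 to 5607 CPM in control. Gfap, the astrocyte marker with the smallest p, had the other sign, with 300.5, 264 and 242 CPM in overexpression replicates 1 to 3 and 208, 134 and 180.5 CPM in control replicates 1 to 3. All 6 cholinergic markers had negative log2 fold changes, with a median of −0.65, overlapping summed levels of 33.02 to 82.6 CPM in overexpression and 61.1 to 116 CPM in control, and 0 at an unadjusted p under 0.05. Microglial and GABAergic interneuron markers had 1 of 8 and 1 of 9 at an unadjusted p under 0.05, and oligodendrocyte, cortical and pan-neuronal markers 0 of 8, 0 of 14 and 0 of 10. All 14 cortical markers had positive log2 fold changes, with a median of 0.32 and overlapping summed levels. That of Slc17a7 was 0.43 (SE 0.93). In none of these lists was a gene called by edgeR. The part of these tissues and cells in the levels of the 9 genes was not tested.

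Among the genes whose levels over the 6 libraries were most like the mean of the 9, by Pearson's r on log2(CPM + 0.5) among 10367 genes with a mean of at least 10 CPM, were Ago4, Kcnd2, Vldlr, Drd1, Cbr3, Spock3, Dnajb4, S100pbp and Dach1, with r from 0.9992 for Ago4 to 0.995 for Dach1. Drd1, the D1 dopamine receptor, had 249, 198 and 119.9 CPM in overexpression and 187, 251 and 141 CPM in control. Drd1 also stood among the other medium spiny neuron genes above. Dach1, a transcriptional cofactor, spanned more than the shared genes did on average, 1.23 on the log2 scale, and Dnajb4, a heat shock cochaperone, spanned 0.36.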

How the data were processed

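Counts of reads per gene were deposited for each sample as whole numbers that the authors had not normalized. The submitters' processing notes name, without roles, FastQC 0.11.5, STAR 2.5.3a, Cuffnorm, DESeq 1.16.1 and build mm10. Libraries were strand-specific, per the labels' protocols. GENCODE release M21 gave symbols, coordinates and exon lengths and matched 55154 of 55335 identifiers. Groups were compared with edgeR 4.0.16 in R 4.3.3 (TMM, filterByExpr, robust quasi-likelihood F-test, two-sided, Benjamini-Hochberg over 19809 genes, threshold 0.05); a standard error is the absolute log2 fold change over the square root of F. CPM uses TMM-adjusted library sizes, and sums over a list use library totals. Ratios and correlations used log2(CPM + 0.5) with exact permutation over samples, adjusted over all tested genes rather than over the 9 as planned. DESeq2 1.42.0 and limma-voom 3.58.1 were alternatives, and tests were checked on simulated counts. Libraries of a group differed beyond sampling noise (chi-square over degrees of freedom between 19.1 and 49.6). Members and lists were chosen with earlier results of these data known. Named genes are the 9 members, Pde5a, Slc17a7, Ttr, up to 3 per list with the smallest p between groups, and the 10 most alike in pattern, of which 1 is not reported here. Foxp2, Meis2, Mef2c, Prkar1b, Rgs7bp, Gpr158, Cldn2 and the overlapping genes were named after their values were seen.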

Additional observations from a re-analysis of the deposited data

How the results depend on the processing

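In 16 other fits 0 of the 9 genes were called between groups, with a smallest adjusted p of 0.697. Genes called over all genes, 1 in the report, numbered 83 with the DESeq2 Wald test, 6 with limma-voom, 3 with no filter on low counts, 3 at an adjusted p of 0.1, 3 with the Slc17a7 covariate, 5 with the pan-neuronal covariate, 5 without overexpression replicates 1 and 2, and 1 to 2 with 1 library left out. DESeq2 also called 1 thalamic and 1 astrocyte marker. Log2 fold changes near 0 changed sign, and the cause was not tested. Limma-voom gave −0.013 for Ppp1r1b and 0.0038 for Foxp1, and a filter of at least 1 CPM gave 0.0012 for Foxp1. The Slc17a7 covariate gave 0.18 for Bcl11b, 0.18 for Foxp1, 0.17 for Rgs9, 0.27 for Rarb, 0.16 for Rasd2 and 0.15 for Arpp21. The pan-neuronal covariate gave 0.020 for Bcl11b, 0.048 for Foxp1, 0.038 for Rarb and 0.014 for Arpp21. Without overexpression replicates 1 and 2 the median of the 9 was −0.60, with −0.59 for Ppp1r1b, −0.60 for Rxrg, −0.60 for Scn4b and −0.79 for Ttr. With pan-neuronal genes in place of Slc17a7, the log2 ratio of Rxrg differed between groups by 0.047, overexpression minus control. With cortical markers in place of Slc17a7 the median slope was −0.54.

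With 1 library left out, log2 fold changes ran from −0.20 to 0.23 for Ppp1r1b, −0.25 to 0.21 for Bcl11b, −0.20 to 0.21 for Foxp1, −0.32 to 0.20 for Rgs9, −0.31 to 0.30 for Rarb, −0.13 to 0.36 for Rxrg, −0.27 to 0.30 for Scn4b, −0.29 to 0.20 for Rasd2, −0.22 to 0.18 for Arpp21 and −0.19 to 1.25 for Slc17a7, and their median over the 9 from −0.25 to 0.21. Differences in log2 ratio to Slc17a7 ran from −1.66 to 0.39 for Ppp1r1b, −1.68 to 0.39 for Bcl11b, −1.66 to 0.41 for Foxp1, −1.76 to 0.36 for Rgs9, −1.82 to 0.46 for Rarb, −1.61 to 0.48 for Rxrg, −1.69 to 0.47 for Scn4b, −1.76 to 0.38 for Rasd2 and −1.65 to 0.36 for Arpp21. The count of genes falling with Slc17a7 ran from 0 to 9 and their median slope from −0.46 to −0.23.

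Deviations from the group means correlated at −0.03, 0.057 and 0.40 between samples numbered 1, 2 and 3. Overexpression replicate 1 correlated best with control replicate 2, at 0.47. With 3 samples a group these values cannot settle whether samples of the same number were paired. With the replicate number as a block, 3 genes were called over all genes, Ppp1r1b had a log2 fold change of −0.014 and Foxp1 one of 0.0043, and 0 of the 9 genes fell with Slc17a7, where 0.0404% of all tested genes did, at a median slope of −0.20.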
